A study of Oryza sativa with 4 samples.

Results

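Reads of 98 rice microRNA precursors (pre-miRNAs) were followed in leaves over 3 days without water. They are all pre-miRNAs of the families from miR413 upward that had at least 1 read, out of 103 such sequences in the reference, 254 pre-miRNA sequences of any family and 45502 gene and noncoding RNA sequences in all. The choice used the family number and the presence of a read, and no ratio between libraries. The 98 fall into 37 families, of which 14 had reads for more than 1 member (75 pre-miRNAs) and 23 for a single member. At the edge of the number range, pre-miR408 (392, 427, 608 and 470 reads, the control first and then days 1 to 3) lies outside and pre-miR413 (1, 1, 0 and 0 reads) inside. The number is only a rough mark of a rice-type family, since miR528, miR530 and miR535 are known from other plants as well.

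The 4 strand-specific RNA-seq libraries came from wild type rice of the ecotype Illmi, grown in soil pots in a greenhouse to 5 weeks. The control (C) is well-watered leaves, and the others are leaves after water deficit stress for 1, 2 and 3 d (1 d, 2 d, 3 d). Each library was made from leaves pooled over several plants, with 1 library per condition. Among these libraries no difference below thus has a replicate check, and no test was possible. The study also measured the miR818b precursor, mature miR818b, putative target genes and the marker genes Dip1 and RbcS1 by qRT-PCR. For this it grew a second set of plants. It reported that the patterns of precursor and mature miR818b correlated well. None of the qRT-PCR was used here. Control leaves were harvested first, before the drought began, which means that drought and harvest day cannot be told apart. In such bulk samples fewer cells of a type and less RNA per cell cannot be told apart either.

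Read counts given as 4 numbers are in the order C, 1 d, 2 d and 3 d. Reads mapped to genes ranged from 52626188 to 60322263 per library, and each pre-miRNA count was scaled to that total (counts per 1000000 gene reads, CPM). A change past 2-fold means a log2 ratio to the control of at least 1 or at most −1, among sequences with reads in both libraries. Ranges in parentheses after a ratio are exact 95% intervals for the pair of counts and cover counting error only. The labels were checked by Dip1, a dehydrin that rises in dry leaves, with 2832, 4810, 255513 and 237663 reads in C, 1 d, 2 d and 3 d. RbcS1, a small subunit of Rubisco and a leaf marker, had 82272, 67264, 10316 and 768 reads.

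A miRNA gene is transcribed into a hairpin RNA, which Dicer-like enzymes cut to a short mature strand that guides an Argonaute protein to matching messages. In rice, Dicer-like 1 makes the usual miRNAs, while Dicer-like 3 makes longer ones that guide DNA methylation. Several of the families here, among them miR806, miR809, miR812 and miR819, arose from miniature inverted-repeat transposable elements, whose inverted repeats fold into hairpins and occur in many copies. Reads mapped to a hairpin sequence do not measure the mature miRNA. Whether they came from the precursor or from other transcripts that hold a copy of the sequence was not tested.

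The study lists a mature sequence for 46 of the 98 pre-miRNAs in 23 families, 20 to 24 nt long. The 26 sequences have 26 different seeds, and no seed was shared between families. In each of the 7 listed families with several members, all members carried 1 mature sequence, so hairpins of miR439, miR812, miR814, miR815, miR818 and miR821 that differ below share their mature strand. Sequences are shown for some of the families with a precursor at the lowest or highest ratios. Those of miR812, miR818 and miR815, whose members went different ways, are shown too. All sequences run 5′ to 3′, with the seed (bases 2 to 8) in capitals.
miR439: uGUCGAACcgcgguuguucga
miR814: cACUUCAUaguacaacgaaucu
miR530: uGCAUUUGcaccugcaccua
miR530, second listed strand: aGGUGCAGaggcagaugcaac
miR810: uCAUAAGCccaccacaugugg
miR820: uCGGCCUCguggauggaccag
miR818: aAUCCCUUauauuaugggacgg
miR815: aAGGGGAUugaggagauuggg
miR812: gACGGACGguuaaacguuggac
miR821: aAGUCAUCaacaaaaaaguugaau
miR415: aACAGAACagaagcagagcag
miR418: uAAUGUGAugaugaaaugacg
miR817: uCCAACUUgaggcccgauuga

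Most pre-miRNA reads of these leaves came from the families from miR413 upward. They took 19218, 21156, 21272 and 14551 reads in C, 1 d, 2 d and 3 d, or 85.9%, 87.0%, 85.5% and 81.7% of all pre-miRNA reads (exact 95% interval at 3 d 81.1 to 82.2%). Over the 4 libraries 70 pre-miRNAs had at least 100 reads, 5 had fewer than 10, and 87 had reads in every library. The 5 families with the most reads held 71.8% of the reads, and the 26 families with at least 100 reads held 99.5%. Per length, pre-miR442 was the highest, with 218.3, 291.2, 183.3 and 129.8 reads per kb of hairpin per 1000000 gene reads (RPKM) in C, 1 d, 2 d and 3 d. Next in the control came pre-miR812b with 102.5, pre-miR818b with 93.4 and pre-miR806h with 89.9 RPKM. No read was found for pre-miR416, pre-miR417, pre-miR438, pre-miR529 and pre-miR820a. Some hairpins, from 60 nt, are shorter than a usual read, and how reads with several matches were placed is not given in the sources used here, so counts of near-identical hairpins of a family are uncertain.

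Together the 98 pre-miRNAs had 338.8, 402.0, 352.6 and 255.7 CPM in C, 1 d, 2 d and 3 d. The pooled log2 ratio to the control was 0.25 (0.22 to 0.28) at 1 d, 0.06 (0.03 to 0.09) at 2 d and −0.41 (−0.44 to −0.37) at 3 d. Pooled reads of the families below miR413 had log2 ratios of 0.11, 0.10 and 0.04 on the same days. The sign at 3 d depends on the scaling, since the pooled log2 ratio was 0.31 with edgeR TMM factors and 0.45 with DESeq2 size factors (median of ratios). Those factors raise every log2 ratio at 3 d by 0.72 and 0.86, and at 2 d by 0.33 and 0.36. The median pre-miRNA lay at 0.19, −0.01 and −0.60 at 1 d, 2 d and 3 d, and the median of all genes at 0.03, −0.38 and −0.83. The pre-miRNA median was thus 0.16, 0.37 and 0.23 above that of all genes, a gap that no scaling changes. For the pre-miRNAs below miR413 the median lay at 0.19, 0.16 and −0.996 at 1 d, 2 d and 3 d. At 3 d their median was thus lower than that of the 98, although their pooled ratio was higher.

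Few pre-miRNAs passed 2-fold at 1 d, with 4 up and 1 down of 92 measured, where 5.60% of all genes were up and 4.30% down. At 2 d 13 were up and 15 down of 93 (19.2% and 34.4% of all genes). At 3 d 7 were up and 30 down of 89, which is 7.87% and 33.7%, against 20.2% and 46.9% of all genes. In both directions and on every day, shares of the pre-miRNAs were below those of all genes. Of the pre-miRNAs below miR413, 4 were up and 17 down of 34 at 3 d. When the counting interval also had to lie past no change, 1 pre-miRNA was up and 1 down at 1 d (3.02% and 2.84% of all genes), 13 were up and 10 down at 2 d (17.8% and 32.4%), and 5 were up and 24 down at 3 d (18.9% and 44.8%). Under edgeR TMM scaling 19 were up and 11 down at 3 d (30.2% and 34.3% of all genes). Under DESeq2 scaling 23 were up and 10 down (32.5% and 32.1% of all genes).

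**Figure D1:**
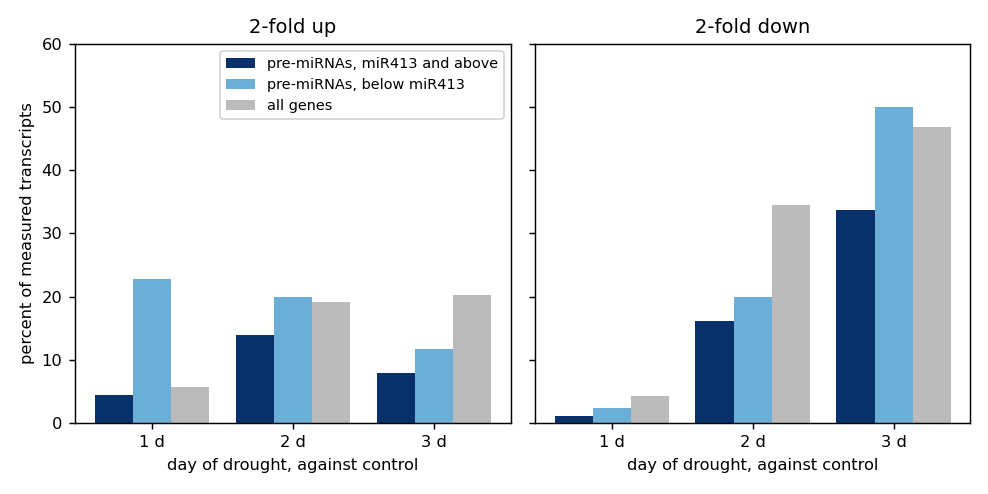
Percent of measured transcripts more than 2-fold up (left) and down (right) against the control at 1, 2 and 3 d, for pre-miRNAs of families from miR413 upward, pre-miRNAs below miR413 and all genes, scaled to gene reads with 1 library per condition. At 3 d the dark bars stand at 7.87% up and 33.7% down, against 20.2% and 46.9% for all genes.

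By family, 0 of the 26 with at least 100 reads were up and 1 down at 1 d, 3 up and 3 down at 2 d, and 1 up and 8 down of 25 measured at 3 d, where the shares of all genes are those above. Under DESeq2 scaling the counts were 7 up and 1 down at 2 d and 5 up and 4 down at 3 d, and under edgeR TMM 6 up and 2 down and then 4 up and 4 down. The 26th, miR820, had no reads at 3 d. Relative to the median of all genes, 14 of the 25 families stood higher at 3 d and 11 lower. The sign of a family's own ratio at 3 d held for 17 of 25 under every scaling tried. It turned positive under edgeR TMM or DESeq2 scaling for the other 8, miR435, miR441, miR442, miR445, miR806, miR809, miR815 and miR818.

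**Figure D2:**
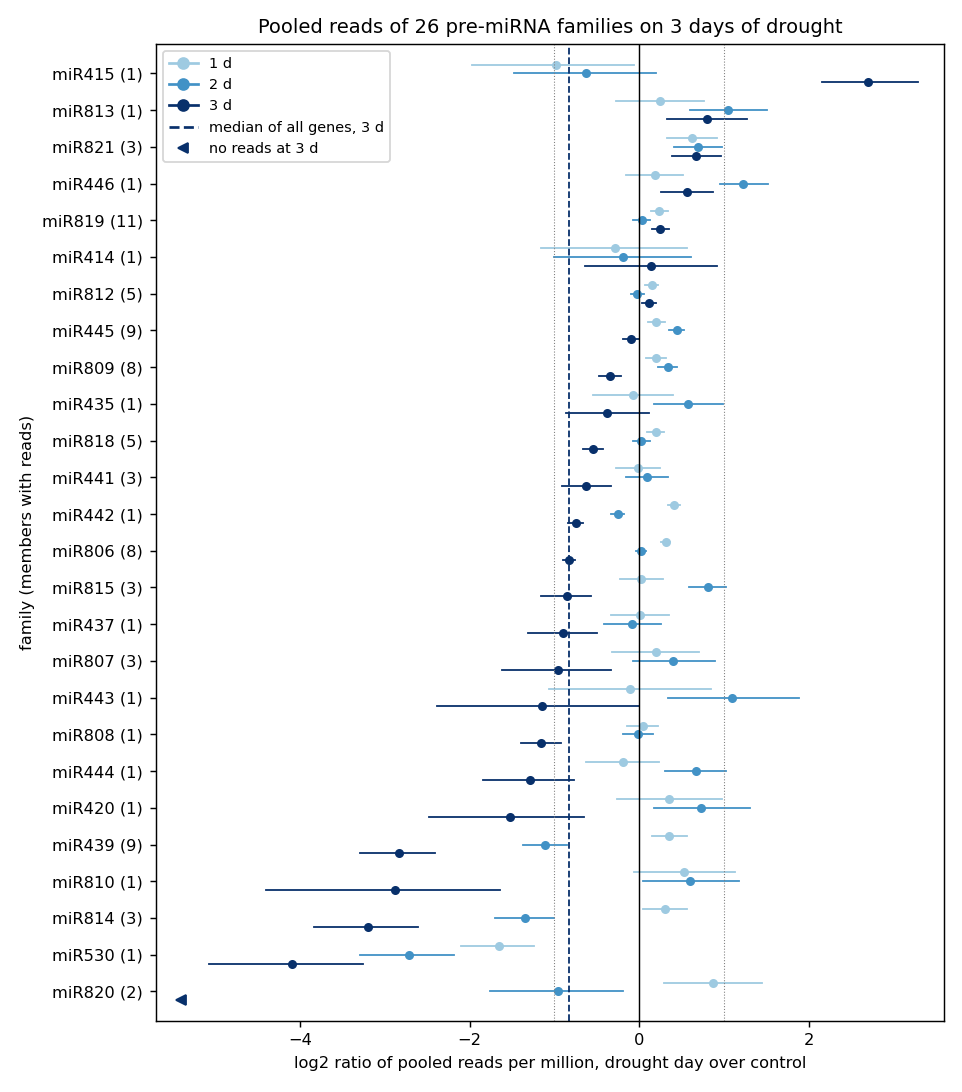
Log2 ratio of pooled CPM to the control for the 26 families with at least 100 reads, at 1, 2 and 3 d (light to dark), with exact 95% counting intervals, dotted lines at 2-fold and a dashed line at the median of all genes at 3 d. Among families with reads at 3 d, miR439, miR810, miR814 and miR530 lie lowest, between −2.84 and −4.09, and miR415 highest at 2.70, on scaled reads without a replicate check. A triangle marks miR820, which had no reads at 3 d.

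Pre-miR530 fell on all 3 days. Its reads were 204 in C, 60 at 1 d, 33 at 2 d and 12 at 3 d. Every drought library was below the one before it, with log2 ratios of −1.66 (−2.10 to −1.24), −2.72 (−3.29 to −2.18) and −4.09 (−5.07 to −3.26). It was the family that was down at 1 d, and it stayed past 2-fold at 3 d under edgeR TMM (−3.37) and DESeq2 (−3.23) scaling.

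The miR439 family, with 9 members, fell at 2 d and further at 3 d. Pooled reads were 363, 431, 179 and 51 in C, 1 d, 2 d and 3 d, with log2 ratios of 0.36 (0.15 to 0.56), −1.11 (−1.38 to −0.85) and −2.84 (−3.29 to −2.41). The control and 1 d were high and 3 d lowest, and the ratio at 3 d stayed below −1 under each scaling, at −1.98 under DESeq2 scaling. Pre-miR439i carried most of these reads, with 208, 256, 106 and 24, which at 3 d is −3.12 (−3.79 to −2.51) on the log2 scale. Pre-miR439e had 58, 60, 30 and 2 reads and pre-miR439b 33, 40, 19 and 5, both following the same order of libraries. Pre-miR439g had 18, 17, 4 and 1 reads, and pre-miR439a/c had 7, 13, 5 and 1. Pre-miR439j had 11, 14, 2 and 0 reads, at least 3.68-fold lower at 3 d with the 0 set at 3 reads. Of the 8 members with reads in both libraries, 7 were down at 3 d. The intervals of 3 of these held no change, those of pre-miR439a/c, −2.81 (−8.31 to 0.15), pre-miR439f, −1.12 (−2.80 to 0.38), and pre-miR439h, −1.33 (−3.45 to 0.47). The exception was pre-miR439d, with 5, 8, 3 and 8 reads and a log2 ratio of 0.67 (−1.12 to 2.63).

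The miR814 family behaved alike at 3 d but not at 2 d. Pooled reads were 237, 271, 99 and 26, a log2 ratio of −1.35 (−1.70 to −1.0) at 2 d and −3.19 (−3.84 to −2.61) at 3 d. Pre-miR814a had 194, 234, 37 and 13 reads and was already down at 2 d, at −2.48 (−3.03 to −1.97). Pre-miR814c had 40, 37, 62 and 13 reads, with log2 ratios of 0.54 (−0.05 to 1.15) at 2 d and −1.63 (−2.65 to −0.69) at 3 d. Both shared the mature sequence shown above and both were lowest at 3 d, but pre-miR814c was highest at 2 d. The third member, pre-miR814b, had 3 reads in the control and none elsewhere.

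Pre-miR810 had 44, 59, 71 and 6 reads in C, 1 d, 2 d and 3 d. Its drop came only in the last library, with a log2 ratio of 0.60 (0.04 to 1.18) at 2 d and −2.88 (−4.40 to −1.64) at 3 d. A like order, with 2 d highest and 3 d lowest, was seen for 3 further families that fell at 3 d. Pre-miR444, whose mature strand targets MADS-box transcription factors in grasses, had 105, 85, 177 and 43 reads, a log2 ratio of 0.66 (0.31 to 1.03) at 2 d and −1.29 (−1.84 to −0.77) at 3 d. Pre-miR420 had 43, 51, 76 and 15 reads and −1.52 (−2.48 to −0.65) at 3 d. Pre-miR443 had 22, 19, 50 and 10 reads, and its ratio passed 2-fold upward at 2 d, 1.10 (0.35 to 1.89), and downward at 3 d, −1.14 (−2.38 to −0.00). Pre-miR808 held level until 2 d, with 494, 472 and 521 reads, and then dropped to 222, a log2 ratio of −1.16 (−1.39 to −0.93) at 3 d. For miR420, miR443, miR444 and miR808 the calls at 3 d were lost with edgeR TMM, where the log2 ratios were −0.80, −0.42, −0.57 and −0.44.

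The miR820 precursors were not detected at 3 d. In rice, miR820 derives from CACTA DNA transposons and targets the DNA methyltransferase OsDRM2. Pre-miR820b had 35, 64, 22 and 0 reads and pre-miR820c 7, 7, 1 and 0. The pooled family was highest at 1 d, with a log2 ratio of 0.87 (0.30 to 1.45), and at −0.96 (−1.76 to −0.19) at 2 d. Pre-miR528, a monocot miRNA that targets ascorbate oxidase, had 19, 24, 2 and 0 reads, at least 6.35-fold lower at 3 d with the 0 set at 3 reads. Pre-miR419 was seen only at 1 d and 2 d, with 0, 14, 4 and 0 reads.

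Rises of more than 2-fold at 3 d were found for 7 pre-miRNAs. Pre-miR415 had 32, 15 and 22 reads in C, 1 d and 2 d and 209 at 3 d. It stood high in the last library alone, with log2 ratios of −0.98 (−1.98 to −0.06), −0.63 (−1.48 to 0.20) and 2.70 (2.16 to 3.29). Pre-miR418 and pre-miR817 instead had more reads in each library than in the one before, with 3, 5, 17 and 47 reads and 3, 7, 16 and 21 reads. Their log2 ratios at 3 d were 3.96 (2.33 to 6.29) and 2.80 (1.06 to 5.19), on only 3 control reads each. Pre-miR819d reached 1.15 (0.84 to 1.46) with 131, 139, 198 and 291 reads. For pre-miR535 (2, 0, 15 and 7 reads) and pre-miR811b (2, 6, 13 and 5 reads) the interval at 3 d held no change.

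The last of the 7, pre-miR821c, differed from the other members of its family. It had 7, 12, 95 and 92 reads, with log2 ratios of 3.67 (2.58 to 5.03) at 2 d and 3.71 (2.61 to 5.07) at 3 d. Pre-miR821a, with 135, 192, 169 and 148 reads, and pre-miR821b, with 24, 33, 22 and 25, had ratios of 0.13 (−0.22 to 0.48) and 0.05 (−0.81 to 0.93) at 3 d. All 3 have the same listed mature sequence. Pooled, the family had 166, 237, 286 and 265 reads and a log2 ratio of 0.67 (0.38 to 0.96) at 3 d.

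Members of miR818 differed from each other as well. Pre-miR818b had 599, 590, 289 and 56 reads in C, 1 d, 2 d and 3 d, and pre-miR818e had 824, 918, 1275 and 956. Pre-miR818b was lowest at 3 d, at −3.42 (−3.85 to −3.03), whereas pre-miR818e was highest at 2 d and stood at 0.21 (0.07 to 0.35) at 3 d. Per length they stood at 8.71 and 74.7 RPKM at 3 d, against 93.4 and 64.6 RPKM in C, so their order turned round. Pre-miR818a, with 32, 26, 25 and 11 reads, and pre-miR818d, with 52, 63, 49 and 15, were down at 3 d as well, at −1.55 (−2.68 to −0.52) and −1.80 (−2.73 to −0.95). Together with pre-miR818e the pooled family, with 1522, 1617, 1647 and 1047 reads, had a log2 ratio of −0.54 (−0.66 to −0.43) at 3 d.

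**Figure D3:**
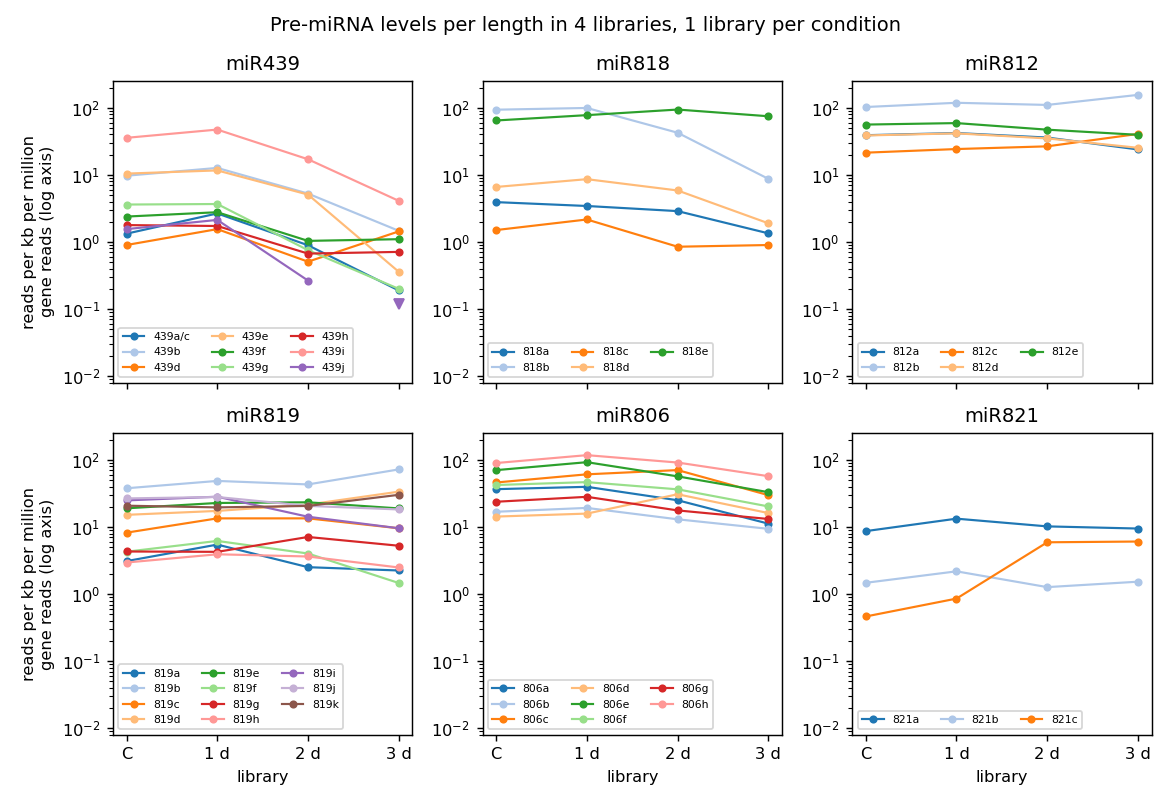
Level per length in RPKM, scaled to gene reads (log axis), in the 4 libraries, 1 line per pre-miRNA, for families miR439, miR818, miR812, miR819, miR806 and miR821, with a triangle for a library without reads (drawn at the foot of the data, not to scale). Within miR818, pre-miR818b dropped to 8.71 at 3 d while pre-miR818e stood at 74.7, and within miR821 only pre-miR821c changed by more than 2-fold.

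In miR812, a family of transposon origin with 10735 reads over the 4 libraries, no member passed 2-fold, yet the members parted at 3 d. Pre-miR812b had 988, 1060, 1129 and 1503 reads and pre-miR812c 199, 209, 263 and 380, both highest at 3 d. Their log2 ratios at 3 d were 0.60 (0.48 to 0.72) and 0.93 (0.68 to 1.18). Pre-miR812a, with 517, 517, 507 and 318 reads, pre-miR812d, with 335, 334, 322 and 220, and pre-miR812e, with 541, 528, 483 and 382, were lowest at 3 d, at −0.71, −0.61 and −0.51. The 2 groups were formed on these same ratios. Their intervals, which cover counting error only, did not touch, and the gap between them is free of the scaling. Pooled, the family was at 0.12 (0.04 to 0.19).

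The miR819 family, the largest with 11 members, spread in the same way. Pre-miR819b had 356, 425, 432 and 682 reads and a log2 ratio of 0.93 (0.75 to 1.12) at 3 d, and pre-miR819k had 184, 161, 194 and 268 reads and 0.54 (0.26 to 0.82). Both were highest at 3 d, like pre-miR819d above. Pre-miR819i fell, with 280, 295, 170 and 108 reads and −1.38 (−1.71 to −1.05), and so did pre-miR819f, with 35, 47, 35 and 12 reads and −1.55 (−2.63 to −0.57). Pre-miR819e had 166, 185, 217 and 166 reads, and the other 5 had ratios between −0.55 and 0.28. Of the 11, 5 had positive and 6 negative ratios at 3 d, and the pooled value was 0.25 (0.15 to 0.35).

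**Figure D4:**
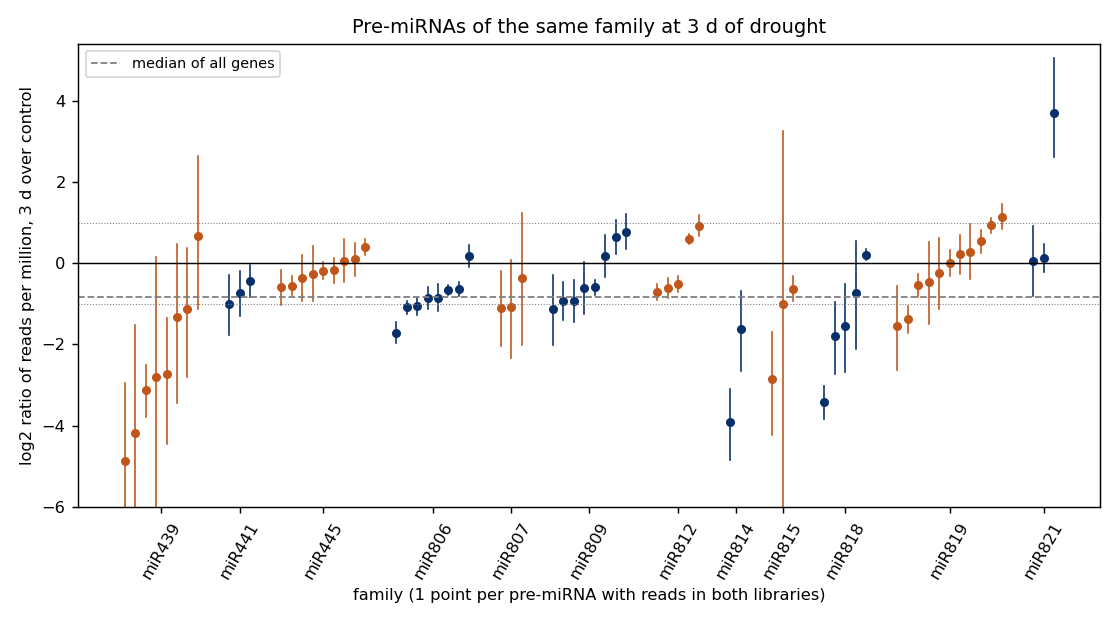
Log2 ratio at 3 d over the control for each pre-miRNA with reads in both libraries, grouped by family for the families with several members and at least 100 reads, with exact 95% counting intervals (cut at the axis limits), dotted lines at 2-fold and a dashed line at the median of all genes. Members of miR812, miR818 and miR819 lie on both sides of no change (0), as do those of miR445, miR806 and miR809. In miR439, 7 of 8 lie below −1 and 1 lies above 0, on scaled reads without a replicate check.

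The miR806 family held the most reads of all, 24.7% of those of the 98. Its pooled reads were 4959, 5708, 5358 and 2805, with log2 ratios of 0.31 (0.26 to 0.37), 0.02 (−0.03 to 0.08) and −0.83 (−0.89 to −0.76), a value at 3 d that equals the median of all genes. Pre-miR806a, with 524, 527, 381 and 161 reads, lay lowest at 3 d at −1.71 (−1.97 to −1.45). Pre-miR806e, with 1019, 1242, 875 and 480, and pre-miR806f, with 578, 592, 530 and 278, also passed 2-fold, at −1.09 and −1.06. Pre-miR806h (1382, 1680, 1495 and 883 reads), pre-miR806c (706, 867, 1149 and 459), pre-miR806g (324, 356, 256 and 180) and pre-miR806b (206, 218, 169 and 115) were lowest at 3 d without passing it. Pre-miR806d stood apart with 220, 226, 503 and 249 reads, up at 2 d by 1.10 (0.87 to 1.34) and at 0.17 (−0.09 to 0.44) at 3 d.

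Pre-miR442, the pre-miRNA with the most reads, had 2886, 3571, 2577 and 1721 and log2 ratios of 0.42 (0.34 to 0.49), −0.25 (−0.33 to −0.17) and −0.75 (−0.84 to −0.66). The 9 members of miR445 together had 1684, 1798, 2434 and 1580 reads, highest at 2 d at 0.44 (0.35 to 0.53) and at −0.10 (−0.20 to 0.00) at 3 d. None of the 9 passed 2-fold on any day, and their ratios at 3 d lay between −0.60 and 0.40. Of these, pre-miR445d had 379, 440, 768 and 502 reads and pre-miR445i 357, 349, 322 and 244, the first highest at 2 d and the second at its lowest at 3 d.

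Of the 70 pre-miRNAs with at least 100 reads, 28 were highest at 2 d, 31 at 1 d, 8 at 3 d and 3 in C. Under DESeq2 scaling the counts for 2 d, 1 d, 3 d and C became 31, 15, 23 and 1, so the position of the maximum depends on the scaling. Scaled to gene reads, 5 of 15 pre-miRNAs below miR413 with at least 100 reads were highest at 2 d. The share of all genes highest at 2 d was not counted. Of the families with at least 100 reads, 3 passed 2-fold upward at 2 d. Pre-miR446 had 147, 155, 366 and 218 reads, at 1.23 (0.95 to 1.51) at 2 d and 0.56 (0.26 to 0.88) at 3 d. Pre-miR813 had 62, 68, 136 and 108 reads, at 1.04 (0.60 to 1.50) and 0.80 (0.33 to 1.27). Both were higher in the 2 later libraries than in the 2 earlier ones, and pre-miR443 was the third.

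In miR809, with 1131, 1201, 1516 and 893 pooled reads, pre-miR809f (80, 81, 175 and 125 reads) and pre-miR809g (74, 81, 209 and 127) were up at 2 d, at 1.04 (0.65 to 1.44) and 1.41 (1.02 to 1.81). Pre-miR809d, the most abundant member with 609, 632, 666 and 405 reads, was at 0.04 (−0.12 to 0.20) at 2 d and −0.59 (−0.78 to −0.41) at 3 d. Pre-miR809a, with 116, 144, 190 and 61 reads, was highest at 2 d and lowest at 3 d, at −0.93 (−1.40 to −0.47). In miR815 the members parted at 2 d, since pre-miR815b had 217, 202, 478 and 141 reads and was up at 1.05 (0.82 to 1.29), while pre-miR815c had 50, 52, 22 and 7 and was down at −1.27 (−2.07 to −0.52). Both carry the same listed mature sequence and both were lowest at 3 d.

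Of the remaining families with at least 100 reads, none passed 2-fold at 3 d. Pooled log2 ratios were −0.90 for miR437 (149, 139, 150 and 80 reads), −0.62 for miR441 (255, 234, 288 and 166) and −0.37 for miR435 (84, 74, 133 and 65). The miR807 family, with 64, 68, 90 and 33 reads, was at −0.96 (−1.61 to −0.33), and miR414, with 29, 22, 27 and 32 reads, at 0.14 (−0.63 to 0.91), a range that allows a change in either direction.

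At 3 d the 2 shorter length classes of hairpins had the lower ratios. Of the pre-miRNAs of 60 to 99 nt, 9 of 14 were down at 3 d, with a median log2 ratio of −1.22, and 10 of 18 of those of 103 to 150 nt, with the same median. Of those of 152 to 198 nt 6 of 30 were down (median −0.47), and of those of 203 to 312 nt 5 of 27 (median −0.55). The share of all genes down at 3 d was 46.9%. Of the 9 in the shortest class 6 belong to miR439, and without that family 3 of 7 were down (median −0.14). At 1 d the shortest class had 0 down and the highest median of the 4 classes, 0.38.

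**Figure D5:**
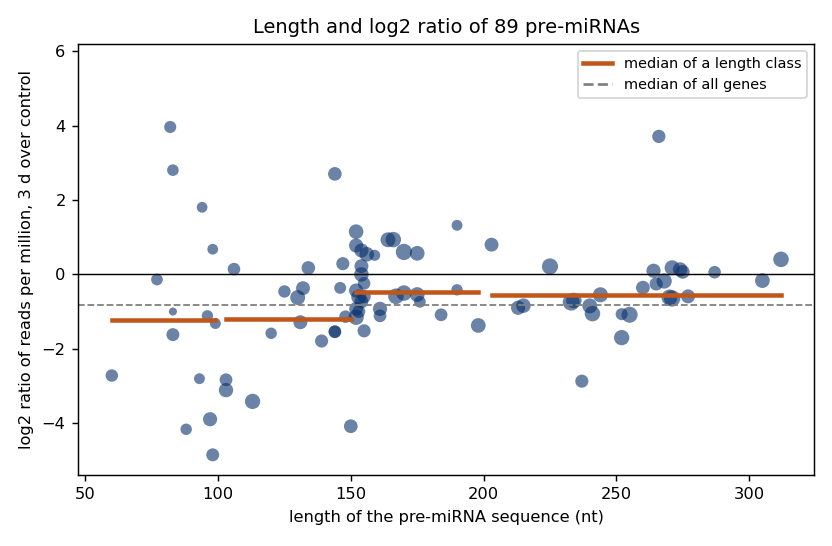
Log2 ratio at 3 d over the control against the length of the pre-miRNA sequence in nt, 1 point per pre-miRNA with reads in both libraries (n = 89, larger points for more reads), with the median of each length class (orange bars) and of all genes (dashed line). The bars stand at −1.22 for both classes up to 150 nt, and at −0.47 and −0.55 for the longer ones. Without miR439 the median of the shortest class is −0.14.

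The study lists predicted targets for 27 of these pre-miRNAs, which it chose on the same libraries, so the lists are no independent evidence of a direction. For some pairs it also reported matching cleavage products in public libraries of RNA ends from other rice samples, which were not used here. Of the 195 target transcripts 180 could be compared at 3 d, and 33 of them (18.3%) were up and 99 (55.0%) down, against 20.2% and 46.9% of all genes. Their median log2 ratio was −1.35, and that of all genes −0.83. At 3 d miR818, whose members parted, had 50 measured targets, 8 up and 29 down, and miR815 had 37, 4 up and 19 down. Of the 18 measured targets of miR415, which rose at 3 d, 4 were up and 11 down. Of the 15 measured targets of miR530, which fell on all days, 4 were up and 6 down.

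Single targets were chosen for description after their values were seen. The 1 listed target of miR439, Os06g0484450-00, similar to a chlorophyll a-b binding protein, had 820, 617, 96 and 49 reads. It was low at 2 d and 3 d, as the miR439 precursors were, at −4.07 (−4.52 to −3.65) at 3 d. Both targets of miR418, which rose, were down at 3 d, among them the cellulose synthase-like protein H3 transcript Os04g0429600-00 with 195, 227, 241 and 19 reads. Of the 3 targets of miR810, which fell, the transcripts Os10g0572900-02 (50, 61, 491 and 937 reads) and Os10g0572900-03 (63, 68, 465 and 748 reads) of a locus annotated as similar to AT-hook protein 1 were up at 4.22 (3.81 to 4.66) and 3.56 (3.19 to 3.96). Os06g0567900-01, an ascorbate oxidase transcript listed for miR528, had 915, 1021, 2953 and 301 reads, highest at 2 d and lowest at 3 d.

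Messages of the enzymes that make and use small RNAs were counted in the same libraries. Of 44 loci found by words in the annotation, 42 could be compared at 3 d, and 5 were up and 21 down. Of all genes 20.2% were up and 46.9% down, so the share of loci up was lower and the share down was near. The median log2 ratio of the loci was −1.02, against −0.83 for all genes. All 7 loci annotated as Dicer-like were down at 3 d when scaled to gene reads, with a median of −2.49. Dicer homologs 1 and 2b are each named by more than 1 of these loci. Os03g0121800-00, similar to Dicer homolog 1, had 884, 601, 377 and 162 reads, at −2.45 (−2.70 to −2.21), and Os03g0583900-02, similar to Dicer homolog 2a, had 2593, 2269, 1230 and 334, at −2.96 (−3.13 to −2.80). Both had fewer reads in each library than in the one before it. Os08g0148600-01, similar to Dicer homolog 3a, went another way at first, with 612, 710, 1579 and 217 reads, up at 2 d at 1.28 and down at 3 d at −1.50 (−1.73 to −1.27). The shifts of 0.72 (edgeR TMM) and 0.86 (DESeq2) at 3 d would bring this ratio inside 2-fold. Of 17 measured Argonaute loci 1 was up and 10 down at 3 d, on the same background. Os02g0831600-01, an AGO1 homologous protein, had 1797, 1661, 498 and 216 reads, at −3.06 (−3.27 to −2.86), while the Argonaute 4 transcript Os01g0275600-01 had 10300, 8372, 9763 and 7754, at −0.41 (−0.46 to −0.37). Of 5 RNA-dependent RNA polymerase loci 3, with neighbouring locus numbers, were up at 3 d and 1 was down, on the same background.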

How the data were processed

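The authors trimmed single-end reads, removed duplicates with FastUniq and mapped the rest with clc_ref_assemble to annotated rice gene sequences and to noncoding RNA sequences. The genome build in the submitters' notes is IRGSP-1.0. The deposited tables hold raw read counts per sequence. Use of strand in counting is not given in the sources used here. RPKM and log2 ratio columns of the authors were not used.

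Counts were divided by the gene reads of the library (52626188 to 60322263), and ratios carry exact Clopper-Pearson 95% intervals. For a count of 0 the bound is 3 reads. With 1 library per condition no test was run. Alternatives were no scaling, TMM, median of ratios, scaling to noncoding reads, 1 added read, at least 10 reads, a counting interval past no change, and the median or all but the largest member of a family. The ratio code was tested on simulated data. Software was Python 3.11.15, numpy 2.4.6, pandas 2.3.3, scipy 1.17.1, matplotlib 3.10.9, R 4.3.3, edgeR 4.0.16 and DESeq2 1.42.0.

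Families with at least 100 reads were described, and pre-miRNAs named were those with at least 100 reads, the 10 highest and 10 lowest at 3 d among those with at least 10 reads, and those with at least 10 reads in 1 of C and 3 d and 0 in the other. Not all are printed. Pathway genes named are Dicer and Argonaute matches. Other pre-miRNAs and targets named were chosen after their values were seen. Members and lists were chosen with earlier results of these data known. Mature sequences and target lists were taken from the study's supplementary tables. Genome positions were not used here.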

Additional observations from a re-analysis of the deposited data

Results flagged for a closer look

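Pre-miRNAs past 2-fold in opposite directions on 2 days, each with a counting interval past no change, numbered 2. The same count was not made over all genes, so whether it is high or low is not known. Pre-miR440, with 12, 24, 1 and 4 reads in C, 1 d, 2 d and 3 d, had a log2 ratio of 1.11 (0.05 to 2.24) at 1 d and −3.67 (−9.09 to −0.92) at 2 d. Pre-miR443, with 22, 19, 50 and 10 reads, had 1.10 (0.35 to 1.89) at 2 d and −1.14 (−2.38 to −0.00) at 3 d. Both depend on the scaling. At 3 d pre-miR443 was at −0.42 with edgeR TMM and −0.28 with DESeq2 scaling. Scaling to noncoding RNA reads shifts ratios at 1 d by −0.21, which would bring pre-miR440 inside 2-fold on that day. The difference between days was not tested, since each day has 1 library.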

How the results depend on the processing

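No paired analysis was possible because each condition had 1 library. The scaling moved the counts, medians and pooled ratios at 2 d and 3 d most. Under edgeR TMM scaling 21 pre-miRNAs rose and 9 fell at 2 d, 19 rose and 11 fell at 3 d (24.5% and 27.1% of all genes at 2 d), their median log2 ratio was 0.31 and 0.12, and the pooled ratio was 0.38 and 0.31 on those days. Under DESeq2 scaling 22 rose and 9 fell at 2 d (25.2% and 26.5% of all genes), 23 rose and 10 fell at 3 d, the medians were 0.35 and 0.26, and the pooled ratios 0.42 and 0.45. Scaled to noncoding RNA reads, 2 were up and 2 down at 1 d (3.59% and 6.48% of all genes). At 3 d 11 were up and 20 down with that scaling (23.9% and 41.9% of all genes). The medians were then −0.02 at 1 d and −0.33 at 3 d, and the pooled ratios 0.040, 0.10 and −0.14 at 1, 2 and 3 d. Without scaling 2 were down at 1 d (5.90% of all genes), with a median of 0.079, and pooled ratios of 0.14 at 1 d and 0.15 at 2 d. With 1 read added 4 were down at 1 d (5.05% of all genes), and with a counting interval past no change 1 was up (3.02% of all genes). Without pre-miR442, which was chosen after seeing the data, as were the scalings of the pooled ratio, it was 0.21, 0.11 and −0.35. Leaving out the member with the most reads turned the sign for miR814 at 1 d (−0.11) and 2 d (0.44), for miR815 (−1.27) and miR818 (−1.0) at 2 d, for miR819 at 2 d (−0.024) and 3 d (−0.033) and for miR812 at 3 d (−0.30), and put miR818 at −2.94 at 3 d. Of the 180 targets compared at 3 d, 58 were up and 77 down under edgeR TMM scaling (30.2% and 34.3% of all genes). Under DESeq2 scaling 59 were up and 74 down (32.5% and 32.1% of all genes). Of 384 family values, 253 stayed within their interval and 130 moved out of it. The gap between the median pre-miRNA and the median of all genes lay between 0.15 and 0.16 at 1 d, 0.35 and 0.43 at 2 d, and 0.21 and 0.27 at 3 d in the alternatives run. Depth limits members with few reads, such as pre-miR418 and pre-miR817 with 3 control reads each, whose intervals span several log2 units. The cause of the moves was not tested beyond the shift each scaling adds. Length classes without miR439 were added after seeing the data.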
